A study of Mus musculus with 23 samples.

Results

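The genes described here are 33 genes of glycolysis and of the response to low oxygen, named beforehand by symbol and found by their gene identifiers among the 36793 genes of the deposited tables. All 33 were present. Eno1 and Eno1b are near copies whose reads cannot be separated, so their counts were summed, which leaves 32 entries. They fall into 7 roles: glucose entry and lactate exit (Slc2a1 and Slc16a3), 13 enzymes of the glycolytic pathway, 3 regulators of flux (Pfkfb3, Pfkfb4 and Pdk1), 5 genes of oxygen sensing and HIF (Hif1a, Egln1, Egln3, Ankrd37 and Kdm3a), 3 genes of mitochondria and lipid stores (Bnip3, Higd1a and Hilpda), 2 collagen hydroxylases (P4ha1 and P4ha2), and 4 genes of growth and stress (Ddit4, Ndrg1, Mxi1 and Adm). No measured value was used to pick them, but earlier results of these data were known when they were picked.

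Bulk RNA sequencing of mouse head and neck cancer models gave 23 libraries in 8 groups. Macrophages, gated as CD45+CD11b+Gr1-F4/80hi, were sorted from subcutaneous tumours of 3 kinds: HPV-negative MEER in C57/Bl6 mice (3 libraries, numbered 1, 2 and 4), HPV-positive MEER in C57/Bl6 mice (3 libraries) and SCCVII, also spelled SSCVII and labelled HPV-negative, in C3H/HeJ mice (3 libraries). MEER cells are mouse oropharyngeal epithelial tumour cells, and SCCVII is a mouse squamous cell carcinoma line. The same tumour cells grown in culture gave 3 libraries of each line, and colonies grown for 9 days from the sorted macrophages in medium for haematopoietic stem cells gave 3 libraries from HPV-negative MEER and 2 from SCCVII tumours. Each macrophage library pooled 3 to 4 mice, whose age is not given in the sources used here. The libraries of a line are aliquots of 1 culture, so their spread may be technical. Tumour model and mouse strain cannot be told apart in any comparison with SCCVII.

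Cells split glucose to pyruvate through glycolysis and, when oxygen is short or demand is high, turn the pyruvate into lactate. The transcription factor HIF, made of an oxygen-sensitive alpha subunit such as the product of Hif1a and a stable partner, raises transcription of glycolytic enzymes, of glucose and lactate transporters and of genes that curb respiration. In the presence of oxygen the prolyl hydroxylases encoded by Egln1, Egln2 and Egln3 mark the alpha subunit for destruction. Macrophages are also known to turn to glycolysis when activated, with Hif1a induced by inflammatory signals even where oxygen is plentiful, and tumour macrophages often lie in poorly perfused areas.

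HIF binds a short core sequence, ACGTG or, less often, GCGTG. RefSeq start sites on GRCm38.p6 gave a window of 250 bases before the start for 31 of the 33 genes (all but Ndrg1 and Eno1b). Either core, on either strand, was present in at least 1 window of 29 of the 31 genes (93.5%), against 41.5% of 27025 genes with such a window and 60.2% of the 10282 of them tested in macrophages. ACGTG was present in 19 (61.3%), against 18.5% and 24.5%. A gene was counted where any of its windows matched, and some genes have more windows than others. Of the members' 45 windows 77.8% held either core and 48.9% held ACGTG. Of all 32851 windows 38.6% and 16.6% did. The windows of Gpi1 and Tpi1 held neither. A match is a description of the letters and not a binding site. The upstream sequences of the 4 genes with a window that had the largest rise in macrophages of HPV-positive tumours, and of the 1 gene that fell, are shown 5′ to 3′ on the gene's strand up to the RefSeq start or, where it comes first, the annotated start of the gene, with each core in capitals.
Hilpda, chr6:29272238-29272487, plus strand: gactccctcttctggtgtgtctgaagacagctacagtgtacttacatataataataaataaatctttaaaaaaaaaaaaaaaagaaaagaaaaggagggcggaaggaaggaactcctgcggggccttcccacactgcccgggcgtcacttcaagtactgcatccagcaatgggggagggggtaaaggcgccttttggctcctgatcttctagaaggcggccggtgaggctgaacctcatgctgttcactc
Egln3, chr12:54203875-54204124, minus strand: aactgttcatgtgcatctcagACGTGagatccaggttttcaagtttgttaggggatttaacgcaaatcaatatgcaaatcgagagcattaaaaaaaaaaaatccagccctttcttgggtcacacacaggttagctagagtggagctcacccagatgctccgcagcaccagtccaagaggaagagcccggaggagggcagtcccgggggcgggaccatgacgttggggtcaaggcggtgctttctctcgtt
Ddit4, chr10:59951835-59952020, minus strand: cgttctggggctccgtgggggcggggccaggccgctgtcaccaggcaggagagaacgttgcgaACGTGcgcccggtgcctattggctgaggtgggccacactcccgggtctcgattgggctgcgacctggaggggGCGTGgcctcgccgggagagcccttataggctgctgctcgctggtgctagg
Pfkp, chr13:6648778-6649021, minus strand: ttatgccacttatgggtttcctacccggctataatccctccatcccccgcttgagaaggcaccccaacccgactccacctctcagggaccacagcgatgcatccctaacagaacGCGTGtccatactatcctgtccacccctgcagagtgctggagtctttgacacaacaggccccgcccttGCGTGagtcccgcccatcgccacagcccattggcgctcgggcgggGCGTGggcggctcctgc
Pfkfb4, chr9:108991652-108991777, plus strand: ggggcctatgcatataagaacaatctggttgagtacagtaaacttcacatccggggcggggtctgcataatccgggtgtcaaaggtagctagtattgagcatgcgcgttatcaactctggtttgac
Counted from the RefSeq start, Egln3 had ACGTG at -229, Ddit4 had ACGTG at -187 and GCGTG at -115, and Pfkp had GCGTG at -136, -68 and -23. The stretch shown for Hilpda held neither core. The window of its other RefSeq start had 3 matches, at -111, -43 and -8. The single GCGTG of the Pfkfb4 window, at -117, lies past the annotated start of the gene and is outside the stretch shown. The gene with the largest rise and the gene that fell therefore both had no core in the stretch shown.

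Levels are given as CPM, expected counts relative to library size, scaled by the trimmed mean of M-values over all 23 libraries, which compare 1 gene between libraries, and as the authors' TPM, which also allow for transcript length and so compare genes with each other. A gene is called higher or lower where edgeR's quasi-likelihood test, adjusted over all genes tested by Benjamini and Hochberg, gave an adjusted p under 0.05. The libraries held 26848759 to 47609481 expected counts, so 1 CPM stands for 26.8 to 47.6 counts before scaling. All 32 entries passed the filter on low counts in every comparison.

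The sorted libraries carried macrophage genes: 15 identity markers, Adgre1 (F4/80), Itgam (CD11b) and Csf1r among them, summed to 24062 to 36266 CPM in macrophages against at most 65.6 CPM in the lines. Colony libraries did not all carry them. The sum was 13868 CPM in HPV-negative colony 1 and 14721 CPM in SCCVII colony 1, but 110 to 971 CPM in the other two HPV-negative colonies and 1264 CPM in SCCVII colony 2, and 10 fibroblast markers reached 766.4 to 4410 CPM in colonies. Counts of called entries in colonies are therefore given with all libraries and with colony 1 of each model alone. Fitted changes of single genes in colonies rest on all libraries, and only that of Egln3 is given both ways.

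A few members share reads with pseudogenes. The share differed between MEER and SCCVII libraries in Gapdh and Eno1b, and between macrophages and lines in Pgam1 and Pgk1. Pseudogene copies of Gapdh took 88.29% to 99.34% of the reads of the gene and its copies together, chiefly Gm13394 and Gm5559. The shares were 40.16% to 57.12% for Pgk1, 32.42% to 50.04% for Higd1a and 1.43% to 30.22% for Pgam1. For Pgam1 the share was 13.47% to 25.28% in macrophages and 1.43% to 8.07% in lines. For Pgk1 it was 44.68% to 49.98% in macrophages and 49.58% to 57.12% in lines, and higher in the line of each model. Eno1b stood at 0 to 1.32 CPM in every MEER library and at 639.4 to 850.1 CPM in every SCCVII library, and its own pseudogene copy Gm4735 at 38 to 233.5 CPM in the former and 790.0 to 1024 CPM in the latter. Values of these genes that set MEER against SCCVII are uncertain, and are given below with the copies added as well. Values of Pgam1 and Pgk1 that set macrophages against lines are uncertain too.

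**Figure D1:**
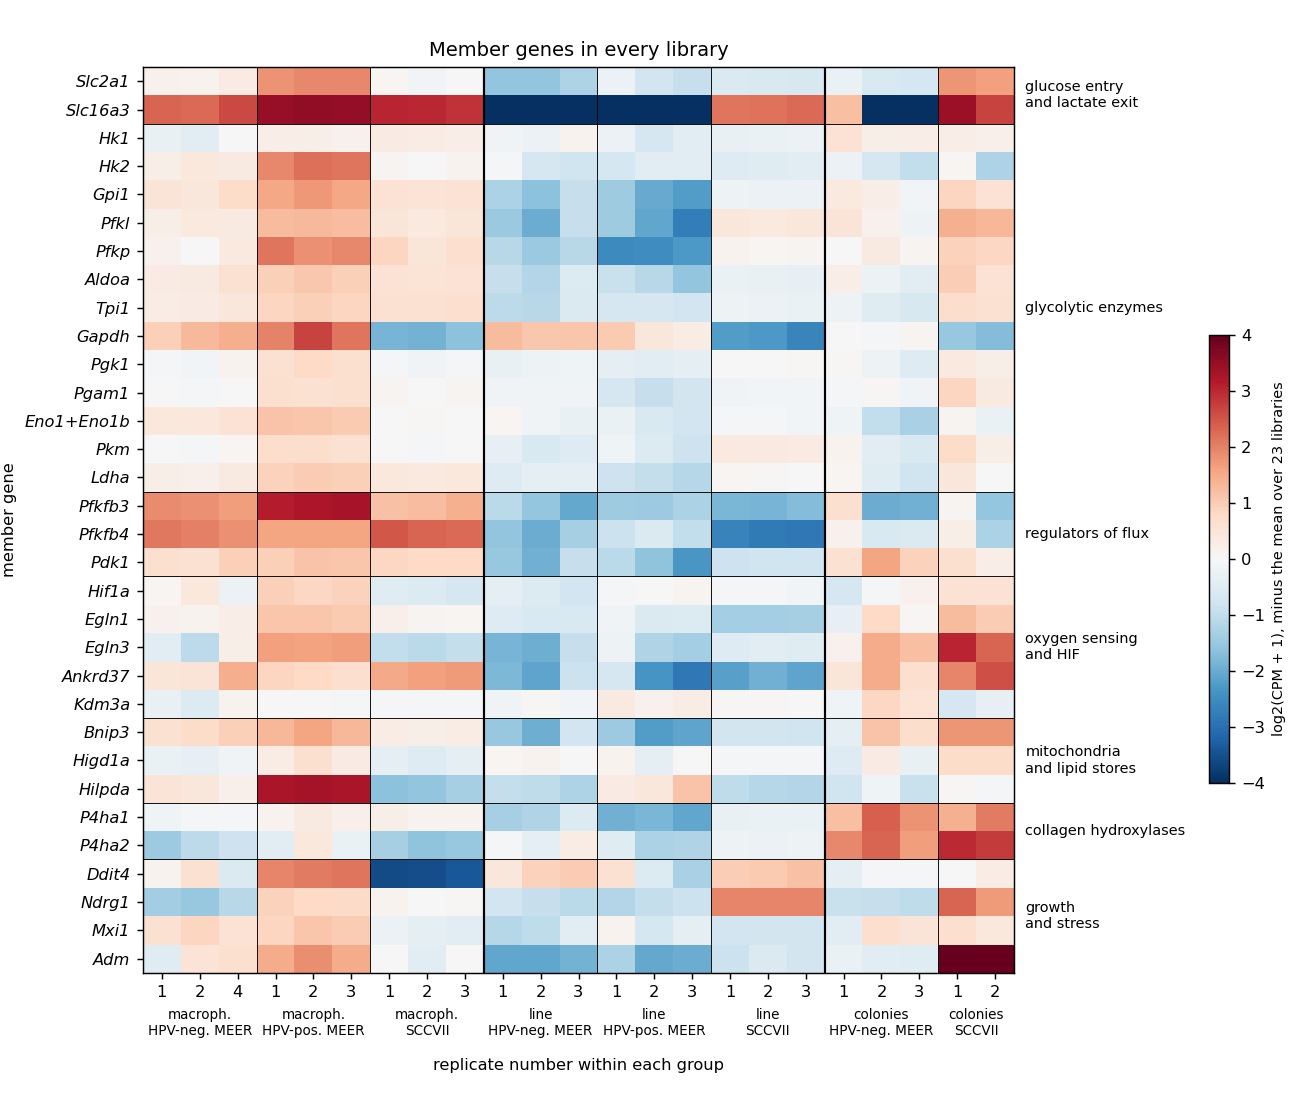
Level of each of the 32 entries (vertical axis, by role) in each of the 23 libraries (horizontal axis, by group), as log2(CPM + 1) minus the gene's mean over the libraries, with colours saturating at 4 in either direction. The 3 libraries of macrophages from HPV-positive tumours are above the mean in most entries, and the cultured lines are below it in most.

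Macrophages from HPV-positive MEER tumours had more RNA of nearly the whole set than macrophages from HPV-negative MEER tumours: 29 of 32 entries were higher and 1, Pfkfb4, was lower, where 22.8% and 25.9% of the 14084 genes tested were called in those directions. By at least 2-fold, 13 entries were higher, against 7.92% of genes, and 0 were lower, against 7.28%. The median log2 change was 0.77 over the 32 entries and -0.05 over all genes. In bulk libraries, more RNA per cell and more cells of a kind that holds the RNA cannot be told apart. In 27 entries all 3 HPV-positive libraries lay above the 6 other macrophage libraries, against 20.4% of genes, and in 1, again Pfkfb4, all 3 lay below them, against 25.7%. Scaling by total counts alone moved the median of all genes to -0.30 and that of the members to 0.52, with 25 higher and 1 lower.

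**Figure D2:**
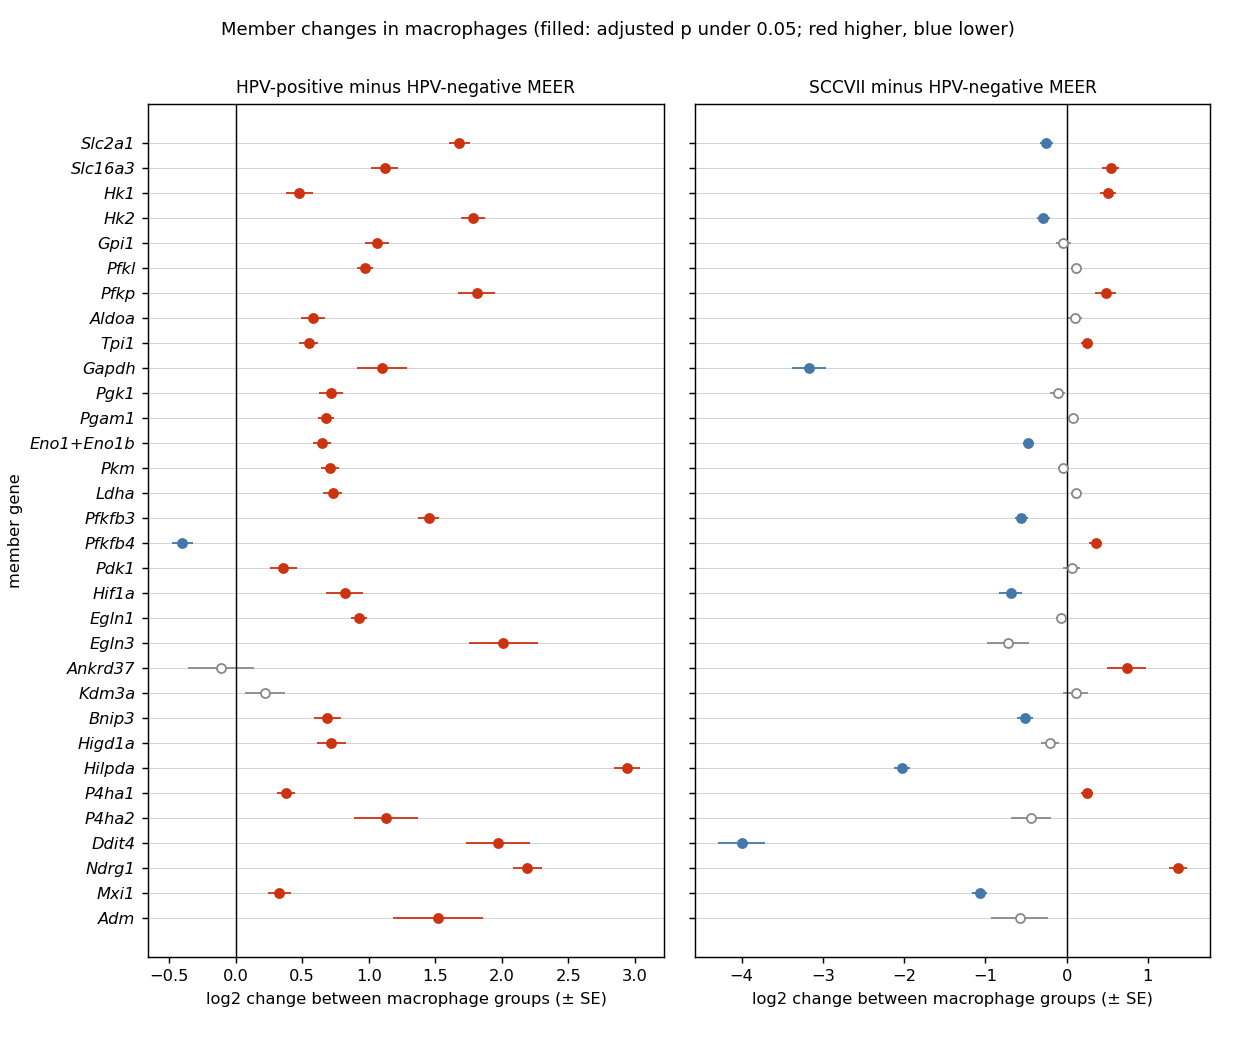
Log2 change of each entry between macrophage groups with its standard error, for HPV-positive minus HPV-negative MEER and for SCCVII minus HPV-negative MEER, 3 libraries a group; filled points were called, in red where higher and blue where lower. Most points of the first contrast lie right of 0, from 2.94 for Hilpda down to -0.40 for Pfkfb4, while those of the second spread to both sides.

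Hilpda, whose protein blocks the main fat-cleaving lipase so that lipid droplets build up, rose the most. The gene lies on chromosome 6 from 29272488 to 29275446, plus strand (GRCm38, as are the positions that follow). It stood at 48.6, 45.5 and 38.9 CPM in macrophages of HPV-negative tumours, at 332.1, 340.5 and 327.2 CPM in those of HPV-positive tumours and at 9.96, 10.4 and 12.6 CPM in those of SCCVII tumours. The 3 groups did not overlap, and the spread within each was small beside the gaps. The log2 change with HPV status was 2.94 ± 0.10 (SE, adjusted p = 1.2e-07), and that of SCCVII against HPV-negative MEER was -2.03 ± 0.10 (adjusted p = 7.9e-07). Per length it was at a median of 472.3 TPM in macrophages of HPV-positive tumours, above Hif1a at 175.0 TPM. The other genes of the role moved less: Bnip3, which drives removal of mitochondria, rose by 0.69 ± 0.10 and Higd1a, which tunes the respiratory chain, by 0.72 ± 0.11 (adjusted p = 0.00057 and 0.00046).

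Genes of growth and stress followed. Ddit4 (chromosome 10, 59949669 to 59951834), an inhibitor of the growth kinase mTORC1, was at 55.3, 77.1 and 33.2 CPM in macrophages of HPV-negative, 197.0, 215.4 and 223.3 CPM in those of HPV-positive and 3.29, 3.31 and 3.89 CPM in those of SCCVII tumours. The lowest and highest of these groups are far apart, and HPV-negative tumours lie between with the widest spread. The changes were 1.97 ± 0.24 with HPV status (adjusted p = 0.00013) and -4.0 ± 0.29 for SCCVII against HPV-negative MEER (adjusted p = 8.2e-06).

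Ndrg1, a stress-response gene long used as a marker of low oxygen, had another order. It was at 118.9, 110.9 and 146.3 CPM in macrophages of HPV-negative, 593.8, 548.8 and 541.5 CPM in those of HPV-positive and 348.9, 310.4 and 324.5 CPM in those of SCCVII tumours, so SCCVII took the middle place. It rose by 2.19 ± 0.11 with HPV status (adjusted p = 1.1e-06) and by 1.37 ± 0.11 in SCCVII (adjusted p = 1.5e-05). Adm, the precursor of the vasodilator adrenomedullin, was low throughout: 2.04, 5.17 and 5.58 CPM in HPV-negative, 10.9, 14.3 and 10.8 CPM in HPV-positive and 3.29, 2.08 and 3.31 CPM in SCCVII macrophage libraries, a change of 1.52 ± 0.34 with HPV status (adjusted p = 0.0054). Mxi1, an antagonist of Myc, rose by 0.33 ± 0.09 (adjusted p = 0.015), a call that was lost without HPV-negative library 1 (adjusted p = 0.056), without HPV-positive library 2 (adjusted p = 0.057) and with scaling by total counts (adjusted p = 0.44).

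**Figure D3:**
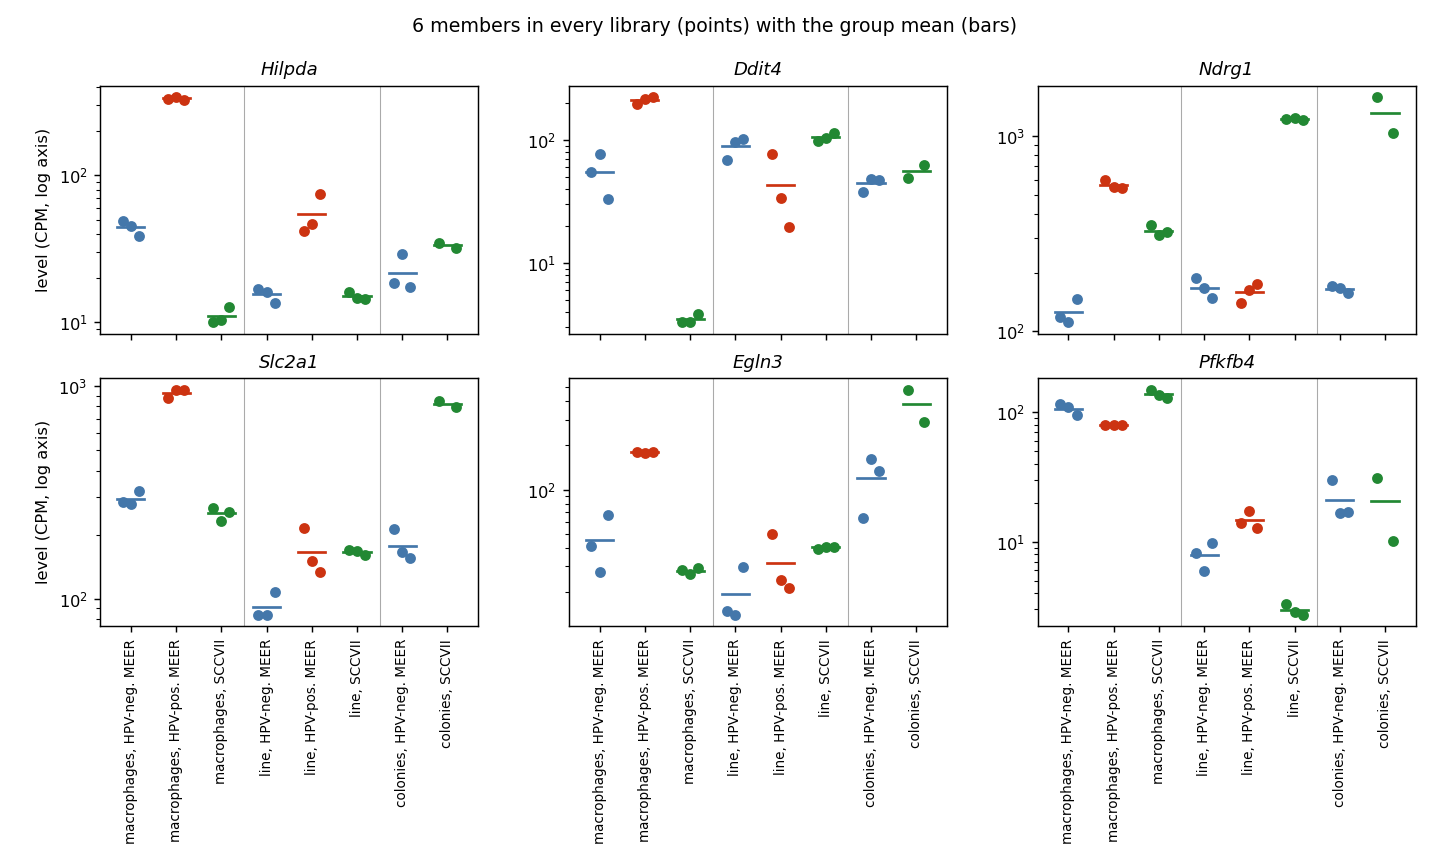
CPM on a log axis of Hilpda, Ddit4, Ndrg1, Slc2a1, Egln3 and Pfkfb4 in each library of the 8 groups, 1 point a library, with the group mean as a bar. Hilpda, Ddit4, Slc2a1 and Egln3 were highest among macrophages in those of HPV-positive tumours and Pfkfb4 lowest there; Slc2a1, Egln3 and Ndrg1 were also high in SCCVII colonies.

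Both ends of the pathway rose with HPV status. Slc2a1 (chromosome 4, 119108711 to 119137983), the glucose transporter GLUT1, was at 285.9, 278.1 and 319.9 CPM in macrophages of HPV-negative, 874.1, 952.2 and 959.1 CPM in those of HPV-positive and 266.2, 233.0 and 255.6 CPM in those of SCCVII tumours, a change of 1.68 ± 0.08 with HPV status (adjusted p = 1.1e-06). It made up 98.5%, 99.5% and 92.3% (medians) of the TPM of Slc2a1 and Slc2a3 together in the 3 groups. Slc16a3, the lactate exporter MCT4, was at 237.1, 228.7 and 295.4 CPM, at 530.8, 559.1 and 542.8 CPM and at 387.6, 380.3 and 351.9 CPM in the same order, so SCCVII was again in the middle. Its changes were 1.12 ± 0.10 with HPV status (adjusted p = 2.5e-05) and 0.54 ± 0.10 in SCCVII (adjusted p = 0.0025). Both calls for Slc16a3 were lost in the fit of all 23 libraries (adjusted p = 0.51 and 0.82).

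All 13 enzyme entries were higher in macrophages of HPV-positive than of HPV-negative MEER tumours, with log2 changes from 0.48 (Hk1) to 1.81 (Pfkp) and a median of 0.72. Summed over the 13, the level was 11620 ± 802.4 CPM (SD, n = 3) in HPV-negative, 19251 ± 674.3 CPM in HPV-positive and 11484 ± 198.7 CPM in SCCVII macrophages. With pseudogene copies added the sums were 13554 ± 942.6, 22573 ± 838.0 and 14625 ± 239.1 CPM. So the sum was highest in HPV-positive tumours by either count, while the order of the other two groups turned with the copies.

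The largest rises among the enzymes were those of Pfkp and Hk2. Pfkp (chromosome 13, 6579768 to 6648777), the platelet type of phosphofructokinase, was at 137.4, 121.4 and 160.4 CPM in HPV-negative, 546.4, 439.5 and 465.8 CPM in HPV-positive and 224.8, 172.0 and 195.3 CPM in SCCVII macrophage libraries, a change of 1.81 ± 0.14 with HPV status (adjusted p = 9e-06). Hk2, the inducible hexokinase that traps glucose in the cell, was at 135.9, 155.3 and 148.0 CPM, at 439.4, 532.2 and 507.9 CPM and at 122.3, 116.4 and 125.5 CPM, a change of 1.78 ± 0.09 (adjusted p = 9.4e-07). In both genes the HPV-positive libraries stood clear of all others. Gpi1, which turns glucose phosphate into fructose phosphate, rose from 1003, 964.2 and 1168 CPM to 2035, 2326 and 2062 CPM, by 1.06 ± 0.09 (adjusted p = 2.1e-05), and Pfkl by 0.97 ± 0.06 (adjusted p = 3.6e-06).

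The remaining enzymes, apart from Gapdh, rose by 0.48 to 0.73. Ldha, which makes lactate, went from 1201, 1174 and 1316 CPM to 1958, 2058 and 1986 CPM, by 0.73 ± 0.07 (adjusted p = 3e-05), and Pkm, pyruvate kinase, from 2769, 2657 and 2964 CPM to 4549, 4618 and 4298 CPM, by 0.71 ± 0.07 (adjusted p = 4.5e-05). Eno1 and Eno1b together, enolase, were at 2034, 2026 and 2249 CPM in HPV-negative, 3304, 3280 and 3151 CPM in HPV-positive and 1522, 1574 and 1538 CPM in SCCVII macrophage libraries, a change of 0.65 ± 0.07 with HPV status (adjusted p = 6.4e-05). Pgk1, Pgam1, Aldoa, Tpi1 and Hk1 rose by 0.72, 0.68, 0.58, 0.55 and 0.48. The call for Hk1 was lost with scaling by total counts (adjusted p = 0.15). Per length and as annotated, Pkm (median 2478 TPM), Aldoa (2314 TPM) and Eno1 (2198 TPM) were the most abundant of the enzymes in macrophages of HPV-positive tumours. Hk1 (67.1 TPM) and Hk2 (129.1 TPM) were the least abundant. Gapdh has no sure place in this order, since its median of 315.9 TPM leaves out the copies, which took most of the reads.

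Gapdh, read as annotated, was at 88.8, 113.2 and 127.5 CPM in HPV-negative, 185.6, 302.4 and 204.1 CPM in HPV-positive and 11.8, 11.5 and 13.9 CPM in SCCVII macrophages, which would make it a strongly varying gene. With its copies added it was at 1303, 1370 and 1400 CPM, at 2280, 2583 and 2348 CPM and at 1484, 1557 and 1608 CPM. The rise with HPV status was 1.10 ± 0.19 as annotated (adjusted p = 0.0013) and 0.85 ± 0.07 with copies (adjusted p = 1.9e-05). The SCCVII difference from HPV-negative MEER was -3.17 ± 0.21 as annotated (adjusted p = 5.5e-06) and 0.17 ± 0.07 with copies (adjusted p = 0.092), so the call and its direction rest on where reads of the copies are counted. For Eno1 and Eno1b the same difference turned from -0.47 ± 0.07 (adjusted p = 0.00065) to 0.20 ± 0.07 (adjusted p = 0.049).

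**Figure D4:**
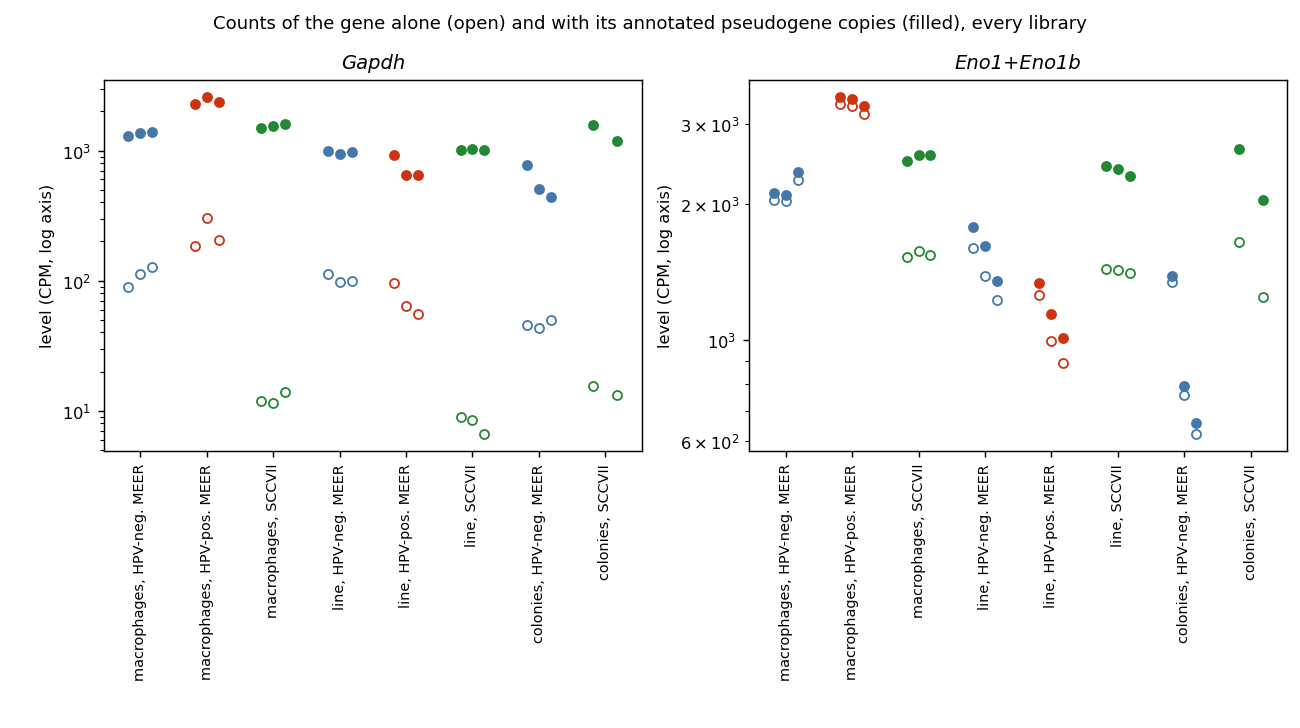
CPM on a log axis of Gapdh and of Eno1 plus Eno1b in each library of the 8 groups, open points for the genes alone and filled points with annotated pseudogene copies added. The open points of Gapdh fall to 6.57 to 15.4 CPM in SCCVII libraries, and the filled ones of the SCCVII libraries lie between 1002 and 1608 CPM, within the 443.4 to 2583 CPM of the MEER libraries.

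The 2 bifunctional enzymes that set the level of fructose 2,6-bisphosphate, the activator of phosphofructokinase, moved in opposite directions. Pfkfb3, the form with the highest kinase activity, rose from 133.4, 128.4 and 115.4 CPM in HPV-negative to 316.4, 339.9 and 353.6 CPM in HPV-positive tumours and was at 79.9, 83.7 and 96.0 CPM in SCCVII tumours. Pfkfb4 (chromosome 9, 108991778 to 109032228) fell from 115.9, 110.1 and 94.9 CPM to 80.2, 80.2 and 79.5 CPM and was at 149.9, 136.6 and 129.4 CPM in SCCVII tumours. The orders of the 3 groups were thus exactly opposed, with no overlap in either gene. The changes with HPV status were 1.45 ± 0.08 (adjusted p = 2.3e-06) for Pfkfb3 and -0.40 ± 0.08 (adjusted p = 0.003) for Pfkfb4. Both calls were lost in the fit of all 23 libraries (1.42, adjusted p = 0.066 for Pfkfb3 and -0.42, adjusted p = 0.34 for Pfkfb4). Per length, Pfkfb3 made up a median of 36.6%, 67.7% and 24.2% of the TPM of the PFKFB family in macrophages of HPV-negative, HPV-positive and SCCVII tumours, and Pfkfb4 55.3%, 27% and 68.5%. Pdk1, a kinase that inhibits pyruvate dehydrogenase, rose by 0.36 ± 0.10 (adjusted p = 0.012). That call was lost with upper-quartile scaling (adjusted p = 0.062) and with scaling by total counts (adjusted p = 0.48).

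Of the oxygen-sensing genes 3 of 5 rose with HPV status. Hif1a (chromosome 12, 73901375 to 73947530) was at 299.0, 376.3 and 237.4 CPM in HPV-negative, 544.2, 501.9 and 534.1 CPM in HPV-positive and 201.6, 192.6 and 177.1 CPM in SCCVII macrophage libraries, a change of 0.82 ± 0.14 (adjusted p = 0.001). Egln3, the hydroxylase that HIF itself induces most, was at 41.3, 27.2 and 66.9 CPM, at 181.0, 176.1 and 181.6 CPM and at 28.3, 26.5 and 29.0 CPM, a change of 2.01 ± 0.26 (adjusted p = 0.00021). HPV-negative and SCCVII libraries overlapped in Egln3, and HPV-positive ones stood above both. Egln1, the main hydroxylase at rest, went from 115.0, 111.7 and 121.6 to 220.3, 221.9 and 210.1 CPM, by 0.93 ± 0.06 (adjusted p = 4.9e-06). Egln3 took a median of 43.1% of the TPM of the 3 hydroxylases in HPV-positive, 20.8% in HPV-negative and 14.7% in SCCVII tumours, while Egln2, which was not a member, took 17.5%, 35.7% and 38.9%.

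The 2 entries of the set with no call were in the same role. Ankrd37, a small ankyrin protein and HIF target, was at 14.0, 14.1 and 28.3 CPM in HPV-negative and 18.2, 17.3 and 16 CPM in HPV-positive tumours (-0.11 ± 0.25, adjusted p = 0.74). Kdm3a, a histone demethylase, was at 69.1, 58.4 and 94.4 CPM and at 86.0, 86.4 and 81.8 CPM (0.22 ± 0.15, adjusted p = 0.25). In both, HPV-negative library 4 was the highest of the HPV-negative libraries. That library also had the highest sums of epithelial (228.7 CPM, against 86.7 and 114.2) and fibroblast (107.3 CPM, against 39.3 and 42.6) markers in its group. Without it 31 of 32 entries were higher and 1 lower, against 3602 higher and 3795 lower of 14250 genes. The part of those markers' cells in the calls was not tested.

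Hif1a was the main alpha subunit measured: it made up a median of 96.6%, 99.1% and 90.9% of the TPM of Hif1a and Epas1 in macrophages of HPV-negative, HPV-positive and SCCVII tumours. Epas1, which encodes the other alpha subunit, moved the opposite way, from 10.2, 20.1 and 10.2 CPM to 5.30, 6.24 and 6.39 CPM with HPV status (-1.15 ± 0.26, adjusted p = 0.0058), and stood at 29.1, 22.9 and 21.1 CPM in SCCVII tumours (0.83 ± 0.25 against HPV-negative MEER, adjusted p = 0.025).

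The collagen prolyl hydroxylases, which need oxygen to make collagen fit for folding, both rose, P4ha2 by more. P4ha1 was at 190.0, 205.4 and 205.1 CPM in HPV-negative and 239.0, 278.8 and 248.1 CPM in HPV-positive tumours, by 0.38 ± 0.07 (adjusted p = 0.0024), a call lost with scaling by total counts (adjusted p = 0.23). P4ha2 was at 10.6, 14.3 and 17 CPM and at 22.8, 41.8 and 25.4 CPM, by 1.13 ± 0.24 (adjusted p = 0.0041).

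Within gene families the rise shifted the balance of isozymes. Hk2 made up a median of 23.4% of the hexokinase TPM in macrophages of HPV-negative tumours and 39.9% in those of HPV-positive tumours, and Hk1 24.3% and 20.2%. The remainder was almost all Hk3, a hexokinase of myeloid cells, at 55.6% and 40.6%. In SCCVII tumours Hk1 led with 49.5%, ahead of Hk3 with 30.8% and Hk2 with 20.7%. Pfkp rose from 45.7% to 59.6% of phosphofructokinase TPM and was at 49.3% in SCCVII tumours. Ldha was at 98.6%, 98.5% and 99.1% of the TPM of Ldha and Ldhb, so lactate dehydrogenase stayed with 1 form in all 3 groups.

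Macrophages of HPV-positive and HPV-negative tumours differed in other cells' markers and in cell cycle genes too. The 15 macrophage identity markers summed to 24062 to 26508 CPM in HPV-positive and 26377 to 36266 CPM in HPV-negative libraries, with 5 higher and 4 lower. Of the sort-gate genes, Adgre1 was at 460.2 to 563.9 against 636.0 to 956.3 CPM and Itgam at 1144 to 1280 against 1929 to 2154 CPM. Ptprc (CD45) was at 938.0 to 979.4 against 481.9 to 707.7 CPM. Epithelial or tumour cell markers (16 genes) summed to 457.3 to 582.6 CPM in HPV-positive and 86.7 to 228.7 CPM in HPV-negative libraries, with 3 of the 11 tested higher and 0 lower, and Krt5, Krt14, Krt17, Trp63 and Dsp under 1 CPM in every macrophage library. Dendritic cell markers summed to 122.8 to 283.5 against 20.2 to 31.0 CPM (7 of 9 tested higher), natural killer cell markers to 48.1 to 112.0 against 22.4 to 43.3 CPM (4 of 7 higher and 0 lower), endothelial markers to 141.2 to 170.3 against 20.0 to 38.3 CPM (1 of 4 higher and 1 lower, with Cldn5, Egfl7, Emcn and Tek under 1 CPM) and eosinophil markers to 46.9 to 67.2 against 3.64 to 5.39 CPM (1 of 2 higher and 1 lower, with Epx and Il5ra at 0). Neutrophil markers summed to 80.6 to 96.6 against 57.0 to 72.6 CPM (2 of 4 higher and 1 lower). Fibroblast markers summed to 23.2 to 66.9 against 39.3 to 107.3 CPM, with 0 of 9 higher and 3 lower. Mitotic genes went the other way from most of these, 382.3 to 471.8 against 776.1 to 876.4 CPM, with 10 of 10 lower. Their part in the members' changes was not tested.

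Other genes of the pathway, from lists that leave the 33 members out, were read in the same fit, in which 22.8% of all genes were higher and 25.9% lower. Of 43 measured HIF targets outside the set 26 rose and 4 fell, with a median of 0.59. Among them Pgf, a vessel growth factor, rose from 10.0, 12.2 and 7.43 CPM to 209.6, 146.9 and 205.3 CPM (4.27 ± 0.19, adjusted p = 6.5e-07) and the repressor Bhlhe40 from 127.9, 141.7 and 158.7 CPM to 1726, 1425 and 1696 CPM (3.52 ± 0.11, adjusted p = 8.2e-08), while Cav1 fell by 3.49 on the log2 scale and the transferrin receptor Tfrc by 1.26. Other genes of glycolysis were divided, 11 of 29 higher and 7 lower with a median of 0.01: Aldoc, another aldolase, rose by 1.99 ± 0.08 (45.5, 39.4 and 44.1 CPM to 162.4, 177.5 and 165.2 CPM) and Pgm1 by 1.33 ± 0.06, while the transporters Slc16a7 and Slc2a6 fell by 1.36 and by 1.29. The share lower in that list (7 of 29) is near that of all genes.

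The TCA cycle, the respiratory chain and the pentose phosphate pathway, which branches off near the start of glycolysis, were read in the same way. Of 26 genes of the TCA cycle 4 were higher and 12 lower (median -0.14), of 32 of the respiratory chain 3 were higher and 7 lower (median -0.06), and of 10 of the pentose phosphate pathway 5 were higher and 2 lower (median 0.14). The shares lower in the respiratory chain and in the pentose phosphate pathway were near or under that of all genes. Mdh2 was the TCA gene with the largest rise (226.6, 241.9 and 226.7 CPM to 573.1, 511.0 and 532.2 CPM, 1.24 ± 0.07, adjusted p = 1.5e-06). Suclg2, of the same cycle, went the other way, from 43.3, 41.3 and 39.2 CPM to 27.6, 29.1 and 28.4 CPM. In the respiratory chain Cox4i2, the form of a cytochrome oxidase subunit that HIF induces, rose by 1.91 ± 0.24, and Ndufa4 fell from 57.3, 69.5 and 57.2 CPM to 25.1, 23.8 and 24.5 CPM (-1.30 ± 0.08, adjusted p = 2.7e-06). Of 15 measured regulators of HIF 7 were higher and 5 lower, with Arnt2 up by 2.10 ± 0.48 at 0.872 to 8.80 CPM and Siah1a down by 0.63 on the log2 scale.

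SCCVII macrophages, set against those of HPV-negative MEER tumours, had 8 entries higher and 10 lower, against 18.7% and 20.5% of 14084 genes; by at least 2-fold it was 1 (Ndrg1, 4.32% of genes) and 4 (Ddit4, Gapdh, Hilpda and Mxi1, 10.4%). These shares are near the background, and the median log2 change was -0.05 over the members and -0.02 over all genes. Besides those described above, Mxi1 went from 120.1, 145.2 and 118.8 to 66.3, 60.7 and 58.1 CPM (-1.07 ± 0.09, adjusted p = 3e-05), Hif1a fell by 0.69 ± 0.14 on the log2 scale, Pfkfb3 by 0.56 ± 0.08 and Bnip3 by 0.51 ± 0.10. Hk1 rose from 129.9, 119.7 and 158.2 to 201.2, 195.9 and 191.4 CPM (0.51 ± 0.10, adjusted p = 0.003) and Pfkfb4 by 0.36 ± 0.08. With pseudogene copies 9 were higher and 9 lower. Smaller calls rested on single libraries: those for Hk2 (-0.29), Slc2a1 (-0.25), Pfkp (0.48), P4ha1 (0.25), Tpi1 (0.25) and Ankrd37 (0.74) were each lost on leaving out 1 library, with adjusted p from 0.052 to 0.15. The libraries were HPV-negative 1 for P4ha1, Pfkp, Tpi1, Slc2a1 and Ankrd37, HPV-negative 2 for Hk2, Pfkp and Ankrd37, and HPV-negative 4 for Slc2a1. They were SCCVII 1 for Hk2, P4ha1, Pfkp and Ankrd37, SCCVII 2 for Hk2, Slc2a1 and Ankrd37, and SCCVII 3 for Tpi1, Slc2a1 and Ankrd37. In all, 4 entries were higher without HPV-negative library 1 and 5 without SCCVII library 1.

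Against macrophages of HPV-positive tumours, which this contrast shares with the first, SCCVII macrophages had 27 entries lower and 2 higher (31.0% and 32.3% of genes); by at least 2-fold 16 were lower and 0 higher (15.1% and 11.5%). Ddit4 differed by -5.96 ± 0.30 and Hilpda by -4.97 ± 0.11. The higher ones were Ankrd37 (29.2, 32.4 and 33.8 CPM in SCCVII, 0.85 ± 0.25, adjusted p = 0.013) and Pfkfb4 (0.75 ± 0.08, adjusted p = 3e-05). Hk1, P4ha1 and Kdm3a had no call (adjusted p = 0.83, 0.17 and 0.54). The call for Pdk1 (-0.30 ± 0.10, adjusted p = 0.02) was lost without HPV-positive library 2 or 3 or SCCVII library 2 or 3 (adjusted p = 0.057 to 0.067), with upper-quartile scaling (0.088) and with scaling by total counts (0.73). Dendritic cell (7 of 9), T cell (8 of 9), natural killer cell (6 of 7), neutrophil (4 of 4) and epithelial markers (7 of 11) were lower in SCCVII than in HPV-positive libraries and mitotic genes higher (10 of 10), and their part was not tested.

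In 11 entries, against 8.67% of genes, the libraries were ordered without overlap as HPV-positive above HPV-negative above SCCVII: Slc2a1, Hk2, Gapdh, Eno1 with Eno1b, Pfkfb3, Hif1a, Bnip3, Higd1a, Hilpda, Ddit4 and Mxi1. With copies added, Gapdh and Eno1 with Eno1b leave that order. Vegfa, a HIF target outside the set, had the same order at 135.4, 142.3 and 155.6 CPM, 836.8, 807.8 and 817.0 CPM and 28.7, 25.3 and 30.0 CPM. In SCCVII against HPV-negative MEER, 4 of the 43 other HIF targets rose and 14 fell, and of the other glycolysis genes 5 of 29 rose and 11 fell. Among all genes tested 18.7% were higher and 20.5% lower. Eno2, the neuronal enolase, was at 56.9, 53.5 and 57.6 CPM in SCCVII macrophages against 1.26, 1.99 and 2.30 CPM (4.89 ± 0.17, adjusted p = 5.8e-08), and Ppfia4 was at 0.298 to 0.582 CPM against 48.9 to 95.9 CPM. Between the same libraries T cell markers (7 of 9 lower, 6.22 to 18.1 against 49.9 to 79.5 CPM), natural killer cell markers (5 of 7 lower, 1.69 to 3.89 against 22.4 to 43.3 CPM), neutrophil markers (4 of 4 lower, 36.4 to 37.2 against 57.0 to 72.6 CPM) and mitotic genes (10 of 10 higher, 1183 to 1325 against 776.1 to 876.4 CPM) differed. Epithelial markers (6 of 11), fibroblast markers (4 of 9), dendritic cell markers (3 of 9) and eosinophil markers (2 of 2) were lower as well, with 0 higher, and their part in the members' values was not tested.

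The cultured lines did not show the pattern of their tumours' macrophages. Between HPV-positive and HPV-negative MEER cells 5 entries were higher and 10 lower, against 23.2% and 23.9% of 14395 genes, with a median of -0.16 over the members and -0.01 over all genes. With scaling by total counts 5 were higher and 5 lower. The number lower was 6 without HPV-negative line library 1 or 3 and 5 without HPV-positive line library 2 or 3, and 8 were higher without HPV-negative library 3. Hilpda again rose the most, from 16.9, 16.1 and 13.5 CPM to 41.7, 46.3 and 74.3 CPM (1.79 ± 0.20, adjusted p = 5.7e-05), followed by Pfkfb4 (0.87 ± 0.21), Slc2a1 (0.85 ± 0.18), Hif1a (0.57 ± 0.10) and Kdm3a (0.33 ± 0.09). Among those that fell was Pfkp, from 56.5, 43.6 and 56.7 CPM to 20.1, 20.9 and 24.2 CPM (-1.27 ± 0.12, adjusted p = 1.8e-05), with 6 other enzymes between -0.64 (Pgam1) and -0.37 (Hk1). P4ha1 and P4ha2 both differed by -0.97, and Ddit4 by -1.05 ± 0.39 (68.9, 96.5 and 102.1 against 76.3, 33.9 and 19.6 CPM, adjusted p = 0.05 after rounding). In Ddit4 the libraries of the lines overlapped.

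Whether the change with HPV status differs between macrophages and lines was tested directly as an interaction over the 18 libraries. It was positive in 23 entries and negative in 1, against 19.4% and 21.6% of 15834 genes, with a median of 1.00 over the members and -0.03 over all genes. Pfkp differed by 3.10 ± 0.19 (adjusted p = 7.9e-09), Ddit4 by 3.03 ± 0.51 (adjusted p = 0.00019), Ndrg1 by 2.27 ± 0.16 (adjusted p = 2.7e-08) and P4ha2 by 2.11 ± 0.37 (adjusted p = 0.00029). In Pfkp and Ddit4 the 2 changes were of opposite sign. Pfkfb4 was the negative one (-1.25 ± 0.21, adjusted p = 0.00019): it fell with HPV status in macrophages and rose in the lines. No call was made for Hif1a (0.25 ± 0.18, adjusted p = 0.28), Slc16a3, Tpi1, Mxi1, Pdk1, Adm, Ankrd37 or Kdm3a. The same interaction for SCCVII against HPV-negative MEER was positive in 3 entries and negative in 16, against 19.8% and 23.9% of genes, with a median of -0.44 over the members and -0.07 over all genes. With pseudogene copies added it was positive in 3 and negative in 14.

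**Figure D5:**
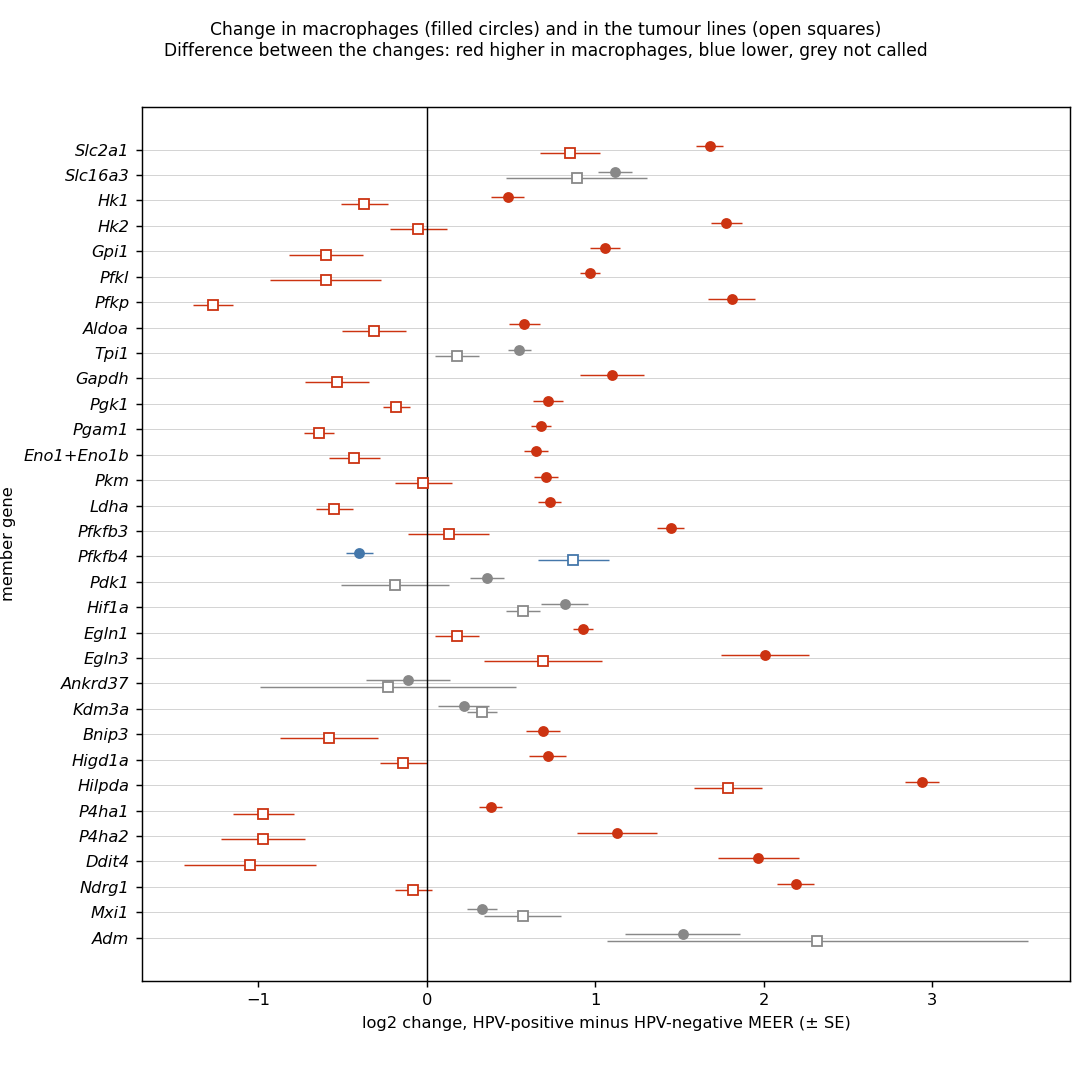
Log2 change of each entry with HPV status in macrophages (filled circles) and in the tumour lines (open squares), with standard errors; red and blue mark a called difference between the 2 changes and grey no call. In the 23 red entries the circle lies right of the square, and in the blue one, Pfkfb4, left of it.

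The SCCVII line differed from the HPV-negative MEER line in 13 entries higher and 3 lower, against 27.2% and 31.6% of genes, and from the HPV-positive line in 16 higher and 6 lower, against 29.9% and 34.1% (13 and 8 with scaling by total counts). The widest difference was in Slc16a3, at 209.9, 214.6 and 227.4 CPM in SCCVII cells but 0.362, 0.117 and 0.196 CPM in HPV-negative and 0.630, 0.373 and 0.252 CPM in HPV-positive MEER cells. Both MEER lines thus had almost no RNA of Slc16a3, at 0.22 and 0.36 TPM (medians) against 183.9 TPM. This does not extend to Slc16a1, another Slc16 transporter, outside the set. Slc16a1 was at 203.1, 253.0 and 225.7 CPM in HPV-negative and 190.7, 181.5 and 189.9 CPM in HPV-positive MEER cells. In SCCVII cells it was at 142.7, 149.9 and 148.7 CPM. Ndrg1 was at 1226, 1239 and 1217 CPM in SCCVII cells against 187.1, 167.0 and 147.7 CPM in HPV-negative MEER cells (2.78 ± 0.12, adjusted p = 3.9e-08), the direction also seen in macrophages. Against HPV-positive MEER cells (139.8, 163.4 and 175.3 CPM) it was higher by 2.86 ± 0.12 (adjusted p = 2.3e-08), while in macrophages SCCVII was lower than HPV-positive MEER (-0.82 ± 0.11, adjusted p = 0.00011). Egln1 (-0.88 ± 0.13) and Pfkfb4 (-1.53 ± 0.22) were lower in SCCVII cells.

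Macrophages held more RNA of most entries than the line of the same model. The macrophages were sorted from tumours and the lines grown in culture. Kind of cell and growth conditions therefore cannot be told apart here or in the interactions. In HPV-negative MEER 25 were higher and 2 lower (38.7% and 37.4% of 15834 genes), in HPV-positive MEER 31 higher and 0 lower (39.6% and 39.1%) and in SCCVII 19 higher and 4 lower (37.4% and 35.5%). Medians over the members were 1.17, 2.35 and 0.64, against 0.01, 0 and 0 over all genes. With scaling by total counts the counts were 22 and 5, 28 and 1, and 15 and 8, and with upper-quartile scaling 18 and 7 in SCCVII; the median of all genes then moved by as much as -0.65, in HPV-positive MEER. Kdm3a was the member with no call in HPV-positive MEER (-0.11 ± 0.13, adjusted p = 0.42). Besides Slc16a3 in the MEER models, where the line is close to 0, the widest gaps in HPV-positive MEER were in Adm (5.54 ± 0.75), Pfkfb3 (4.86 ± 0.20) and Pfkp (4.64 ± 0.15). A fitted size for Adm rests on lines with 0 to 0.781 CPM and depends on the prior count. In SCCVII, Ddit4 (-4.78 ± 0.43), Ndrg1 (-1.77 ± 0.11), P4ha2 (-1.20 ± 0.27) and Hif1a (-0.33 ± 0.12) were lower in macrophages than in the line.

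Colonies grown from sorted macrophages differed from them in both directions, in HPV-negative MEER at shares under those of all genes. All HPV-negative colony libraries come from a separate deposited table, so in every comparison with them the group and the table cannot be told apart. Against macrophages of the same model 5 entries were higher and 8 lower in HPV-negative MEER (34.0% and 28.7% of 16237 genes; 7 and 7 with scaling by total counts), and 15 higher and 1 lower in SCCVII (29.7% and 22.3%). With colony 1 of each model alone the counts were 5 and 13, and 19 and 2. Without HPV-negative colony 1, 14 were lower. The collagen hydroxylases rose in both models: P4ha2 was at 120.3, 159.7 and 101.3 CPM in HPV-negative and 251.6 and 219.8 CPM in SCCVII colonies (3.17 ± 0.23 and 4.49 ± 0.25 above the macrophages, adjusted p = 3.3e-05 and 4.2e-06), and P4ha1 at 502.3, 1148 and 755.4 CPM and at 585.9 and 910.8 CPM (1.97 ± 0.28 and 1.63 ± 0.30). Fibroblast markers summed to 766.4 to 1918 CPM in HPV-negative and 2904 to 4410 CPM in SCCVII colonies, against at most 107.3 CPM in macrophages, and their part was not tested.

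Egln3 was at 63.7, 162.3 and 132.8 CPM in HPV-negative and 480.2 and 289.6 CPM in SCCVII colonies (1.37 ± 0.39 and 3.78 ± 0.44 above the macrophages, adjusted p = 0.013 and 0.00016). HPV-negative colony 1 lay within the 27.2 to 66.9 CPM of the macrophages, and with colony 1 of each model alone the HPV-negative call was lost (0.60, adjusted p = 0.24) while SCCVII stood at 4.08 (adjusted p = 0.00018). Pfkfb4 fell in both (-2.33 ± 0.40 and -2.76 ± 0.47), to 29.8, 16.7 and 17.1 CPM and to 31.1 and 10.2 CPM. Adm had its highest levels of the whole series in SCCVII colonies, 185.8 and 80.2 CPM, against 2.53, 2.08 and 2.05 CPM in HPV-negative colonies (5.89 ± 0.51, adjusted p = 0.0001). Slc16a3 followed the macrophage genes in HPV-negative colonies, at 109.0 CPM in colony 1 but 1.26 and 0.271 CPM in the others. SCCVII colonies had 17 entries higher and 2 lower than HPV-negative ones (20.5% and 19.9% of genes; 7 and 3 with scaling by total counts, and 18 and 2 with colony 1 of each alone). The number higher was 9 without HPV-negative colony 3 and 8 without SCCVII colony 1. Among them were Ndrg1 (1589 and 1036 against 171.5, 166.6 and 156.4 CPM, 2.99 ± 0.21) and Slc2a1 (852.9 and 791.9 against 212.1, 166.4 and 154.8 CPM, 2.20 ± 0.18). Gapdh was lower as annotated (-1.69 ± 0.18, adjusted p = 0.00024) and higher with copies added (1.26 ± 0.26, adjusted p = 0.0055).

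Over the 8 groups, macrophages of HPV-positive tumours had the highest mean of 17 entries, SCCVII colonies of 10, HPV-negative colonies of 4 and SCCVII macrophages of 1, Pfkfb4. The HPV-positive MEER line had the lowest mean of 12. Neighbouring groups often overlapped in that order: in Ldha, for example, HPV-positive macrophages were clear of all others, while HPV-negative macrophages and SCCVII colonies (1403 and 1016 CPM) overlapped. In Kdm3a, 6 of the 7 neighbouring pairs overlapped.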

How the data were processed

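Reads were aligned with STAR 2.5.3a and quantified with RSEM 1.3.0 on mm10 (GRCm38), per the submitters' processing notes. The strand setting is not given in the sources used here. The authors deposited 2 tables of RSEM expected counts and of TPM per gene, 1 of them for the HPV-negative colonies. Expected counts were rounded to whole numbers (13.1% were not whole within 0.005), and 95.8% of the 36793 genes had a symbol. Genes were kept by edgeR's filterByExpr (minimum count 10, total 15), scaled by TMM and tested with edgeR 4.0.16 by the quasi-likelihood test (prior count 0.125) in R 4.3.3, with Benjamini-Hochberg adjustment over all genes and a threshold of 0.05. Fits used 9 macrophage libraries, 9 line libraries, both together (18) or colonies with the macrophages of the same models (11). Test scripts were tested on simulated data. Log2 changes carry standard errors.

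The members and gene lists were chosen with earlier results of these data known. All members may be named; values of every library are given for the called members with the largest change in each role, the transporters, Hif1a and enolase, and of each other list up to 2 rises and 2 falls are named. Vegfa, Hk3 and Egln2 were added as related genes. Pseudogene copies were found with blastn 2.17.0 (at least 90% identity over 200 bases and 50% of the copy) among GENCODE M21 transcripts. Alternatives were DESeq2 1.42.0, other scalings, no filter, a replicate block, all 23 libraries in 1 fit and each library left out. Added after seeing the data were the copies and colony 1 alone. No sample was left out otherwise. Nothing states that the pools of mice are independent replicates, so p-values measure the spread between these libraries.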

Additional observations from a re-analysis of the deposited data

Results flagged for a closer look

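The change with HPV status (HPV-positive minus HPV-negative MEER) differed between macrophages and cultured lines in 24 entries, by an interaction term in edgeR's quasi-likelihood fit over 18 libraries. On the log2 scale the change in macrophages exceeded that in the lines by 3.10 in Pfkp, 3.03 in Ddit4, 2.27 in Ndrg1, 2.11 in P4ha2, 1.83 in Hk2, 1.68 in Gpi1, 1.64 in Gapdh and 1.58 in Pfkl. The excess was 1.36 in P4ha1, 1.34 in Egln3, 1.33 in Pgam1, 1.32 in Pfkfb3, 1.29 in Ldha, 1.29 in Bnip3, 1.15 in Hilpda and 1.09 in Eno1 with Eno1b. It was 0.91 in Aldoa, 0.91 in Pgk1, 0.87 in Hk1, 0.87 in Higd1a, 0.84 in Slc2a1, 0.76 in Egln1 and 0.74 in Pkm. Pfkfb4 differed the other way, by -1.25.

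The difference between SCCVII and HPV-negative MEER also differed between macrophages and lines, in 19 entries. It was lower in macrophages by -9.36 in Slc16a3, -5.27 in Adm, -4.21 in Ddit4, -1.95 in Hilpda, -1.72 in Egln3, -1.70 in Pfkl, -1.48 in Ndrg1 and -1.14 in Hif1a. Further values were -1.12 in Mxi1, -1.07 in Slc2a1, -1.06 in Bnip3, -1.03 in Gpi1, -0.84 in Pkm, -0.83 in Pfkp, -0.45 in Eno1 with Eno1b and -0.31 in Pgk1. It was higher in macrophages by 1.82 in Pfkfb4, 0.75 in Egln1 and 0.74 in Hk1. The fitted sizes of Slc16a3 and Adm rest on line libraries close to 0 and depend on the prior count. With pseudogene copies added, the value of Eno1 with Eno1b was -0.35 (adjusted p = 0.075) and that of Pgk1 -0.14 (adjusted p = 0.39). Neither was then called.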

How the results depend on the processing

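Of 302 called changes of members over 14 comparisons, DESeq2 lost 3, DESeq2's size factors in edgeR 6, no filter 7, upper-quartile scaling 12, scaling by total counts 46 and the fit of all 23 libraries 44. Leaving out 1 library at a time kept 1883 of 2035. In macrophages, HPV-positive against HPV-negative MEER then had 28 to 31 higher and 1 lower, SCCVII against HPV-negative MEER 4 to 12 and 8 to 10, and SCCVII against HPV-positive MEER 2 and 26 to 27. In the lines the same comparisons had 5 to 8 and 5 to 13, 11 to 15 and 3 to 4, and 12 to 19 and 5 to 6. Macrophages against lines had 25 and 1 to 3 in HPV-negative MEER, 31 and 0 in HPV-positive MEER, and 18 to 19 and 3 to 4 in SCCVII. The interactions had 22 to 25 and 1 for HPV status, and 3 and 14 to 19 for SCCVII. Colonies against macrophages had 4 to 6 and 6 to 14 in HPV-negative MEER and 12 to 15 and 1 to 2 in SCCVII, and SCCVII against HPV-negative colonies 8 to 21 and 1 to 3. In the fit of all 23 libraries, 0 were lower in macrophages with HPV status (Pfkfb4 lost its call). That fit also lost rises with HPV status in macrophages. They were those of Slc16a3, Pfkfb3, Adm, Bnip3, P4ha1, Pdk1 and Mxi1 (adjusted p = 0.066 to 0.51). It gave 3 higher and 5 lower for SCCVII against HPV-negative MEER macrophages, and 1 higher for SCCVII against HPV-positive MEER macrophages. For SCCVII colonies against macrophages it gave 2 lower. Scaling by total counts gave 5 lower with HPV status in the lines, 5, 1 and 8 lower in macrophages against lines (HPV-negative, HPV-positive, SCCVII) and 7 higher between colonies; upper-quartile scaling gave 1 and 7 lower in macrophages against lines of HPV-positive MEER and SCCVII. In SCCVII colonies against macrophages DESeq2 gave 2 lower. Colony 1 alone gave 13 lower in HPV-negative MEER and 2 in SCCVII, and the copies gave 1 lower between colonies. With copies, 4 changes reversed: Gapdh and Eno1 with Eno1b in SCCVII against HPV-negative macrophages (0.17 and 0.20), and Gapdh in SCCVII against HPV-positive lines (0.36) and between colonies (1.26). Pgam1 in HPV-negative macrophages against the line reversed to -0.08 (adjusted p = 0.39) with scaling by total counts. The cause was not tested, except that the copies add reads by construction.

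Replicate numbers were not taken to pair the samples: correlations of same-numbered deviations were -0.02 to 0.10 in macrophages, -0.14 to 0.03 in lines and -0.12 to 0.34 in colonies with macrophages, where 3 of 13 pairs were above 0.1 (0.34 and 0.15 between the colonies numbered 1 and 2, and 0.14 between HPV-negative colony 1 and macrophage 1), though 12 of 14 looked at in macrophages and 6 of 18 in lines correlated best with their own number. With a replicate block the counts were 31 and 1, 11 and 9, and 2 and 27 in macrophages, 5 and 9, 13 and 3, and 16 and 5 in lines, 25 and 3, 31 and 0, and 20 and 4 between them, 23 and 1, and 3 and 14 for the interactions, and 4 and 8, 14 and 1, and 13 and 2 with colonies. HPV-negative macrophage library 4 has no other library of its number, so with the block it adds nothing to comparisons between groups. Depth limits Adm and Slc16a3 in MEER lines.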
